A study of Drosophila melanogaster with 12 samples.

Results

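Peaks of accessible chromatin were examined at 9 genes that drive or restrain the nuclear division cycles of the *Drosophila melanogaster* embryo. The genes were *stg*, *twe*, *CycA*, *CycB*, *CycB3*, *Cdk1*, *CycE*, *grp* and *mei-41*, chosen by their function, out of 13968 annotated protein-coding genes. A peak belonged to a gene when it overlapped the annotated gene span or the 2 kb on either side of it, on the dm6 (Release 6) assembly. The 12 peak lists, merged into one set, held 22350 regions, and 36 of these lay at the 9 genes.

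Each library was made by ATAC-seq, in which a transposase cuts and tags open DNA, from hand-selected embryos that were pooled within a replicate. Embryos of M-Z+ *HIRA* mutant genotype lacked the maternal product of *HIRA*, which encodes a chaperone of the histone variant H3.3, but carried a zygotic copy. They were collected 0.5 to 1.5 h and 2 to 3 h after egg laying, each stage with wild type embryos as its control. Embryos of M-Z+ *dPCIF1* mutant genotype lacked the maternal product of *dPCIF1*, the fly homologue of an mRNA cap methyltransferase, and were collected at 0.5 to 1.5 h with wild type embryos of their own. This gave 6 groups of 2 libraries. The null alleles were made with CRISPR/Cas9. The embryos were staged by age, so that a library holds nuclei of several division cycles, and a stage difference can hold a difference in nuclear number. The study reports that nuclear divisions were arrested or delayed in most *HIRA* mutant embryos of the later stage, and likely absent in some. A difference between *HIRA* mutants and their controls can therefore also hold a difference in division cycle and nuclear number. The part of these in the *HIRA* comparisons was not tested. The 2 wild-type sets at 0.5 to 1.5 h are called here the *HIRA* controls and the *dPCIF1* controls.

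The fly embryo begins as a syncytium, in which nuclei alternate between S phase and mitosis without gap phases. Mitosis is driven by Cdk1 bound to cyclins A, B and B3, and Cdk1 is switched on by the Cdc25 phosphatases String (*stg*) and Twine (*twe*). Cyclin E, with Cdk2, drives S phase. The early embryo runs on maternal RNA and protein of all these genes. The checkpoint kinases Mei-41, the fly ATR, and Grapes (*grp*), the fly Chk1, slow the last syncytial cycles, and after the maternal supply of Cdc25 is destroyed each later mitosis waits for a burst of zygotic *stg* transcription. Promoter motifs of 4 DNA-binding proteins were looked up in the reference sequence on both strands. These were GAGAGAG, bound by the pioneer factor GAF, CAGGTAG, bound by the pioneer factor Zelda, TATCGAT, bound by DREF at housekeeping and replication genes, and GGTCACACT, bound by M1BP.

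The start sites of *CycA*, *CycB3*, *grp*, *Cdk1* and *mei-41* are shown first because the motifs just upstream of them differ, and because the peaks described below stop short of some of them and cover others. Each line is the Release 6 reference sequence of the 100 bases before an annotated start site, 5′ to 3′ on the gene's strand, with motif matches in capitals. The capitals mark DREF matches in *CycA*, *grp* and *mei-41* (TATCGAT or its reverse complement; in *CycA* and *mei-41* the matches on both strands overlap by all but 1 base) and an M1BP match in *CycB3*. The 100 bases before the *Cdk1* start held none of the 4 motifs. The 9 genes have 17 annotated promoters (250 bases before to 50 after a start site). The TATCGAT motif was present in 4 of the 17, 1 each at *CycA*, *CycB*, *grp* and *mei-41*, where 15.9% of 19276 annotated promoters had it. GGTCACACT was present in 2 of 17, at *CycB* and *CycB3*, where 5.22% of promoters had it, GAGAGAG in 2 of 17, at *CycE* and *grp*, where 7.62% had it, and CAGGTAG in 0 of 17, where 1.69% had it.
CycA start (chr3L:11833579-11833678, minus strand): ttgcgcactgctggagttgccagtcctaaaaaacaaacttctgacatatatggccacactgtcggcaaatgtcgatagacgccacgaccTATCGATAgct
CycB3 start (chr3R:24870817-24870916, minus strand): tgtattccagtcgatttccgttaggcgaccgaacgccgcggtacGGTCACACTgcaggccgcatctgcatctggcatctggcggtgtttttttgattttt
grp first start (chr2L:16679954-16680053, plus strand): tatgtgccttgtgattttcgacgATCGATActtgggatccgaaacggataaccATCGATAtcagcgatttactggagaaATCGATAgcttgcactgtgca
mei-41 start (chrX:16391598-16391697, plus strand): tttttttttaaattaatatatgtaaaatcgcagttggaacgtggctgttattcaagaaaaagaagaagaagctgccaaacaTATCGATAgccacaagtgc
Cdk1 start (chr2L:10386263-10386362, minus strand): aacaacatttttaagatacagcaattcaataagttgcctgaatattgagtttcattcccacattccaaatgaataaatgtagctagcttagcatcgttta

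The next lines give, for regions away from those start sites, the longest stretch free of annotated untranslated and noncoding exons within the part shared by all peaks of a region, cut to its middle 300 bases where it was longer. They are an intron of *CycE* and the stretch before its downstream start, both of which were open in every library. The line named *CycE* upstream promoter belongs to the promoter region of the first start, but lies inside the gene, in an intron. Its DREF and GAF matches lie 429 and 500 bp downstream of that start. The other lines are an intronic *CycE* region seen in late *HIRA* mutants alone, the *twe* coding region with its Zelda match, and a *grp* intron with a run of GAF matches. Capitals mark the matches, written as CTCTCTC for GAF, ATCGATA for DREF and CTACCTG for Zelda where the match is on the other strand.
CycE intron (chr2L:15743087-15743386, minus strand): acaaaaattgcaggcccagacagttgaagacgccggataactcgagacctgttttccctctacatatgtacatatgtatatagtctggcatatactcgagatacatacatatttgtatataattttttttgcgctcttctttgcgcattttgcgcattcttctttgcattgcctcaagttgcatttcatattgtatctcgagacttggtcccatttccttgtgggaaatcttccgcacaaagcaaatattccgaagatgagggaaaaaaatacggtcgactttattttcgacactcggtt
CycE downstream start (chr2L:15731789-15732016, minus strand): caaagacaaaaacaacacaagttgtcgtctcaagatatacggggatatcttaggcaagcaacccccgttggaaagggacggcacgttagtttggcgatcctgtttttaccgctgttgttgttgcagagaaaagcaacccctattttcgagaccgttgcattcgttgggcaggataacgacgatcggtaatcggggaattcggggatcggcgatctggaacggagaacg
CycE upstream promoter (chr2L:15747577-15747832, minus strand): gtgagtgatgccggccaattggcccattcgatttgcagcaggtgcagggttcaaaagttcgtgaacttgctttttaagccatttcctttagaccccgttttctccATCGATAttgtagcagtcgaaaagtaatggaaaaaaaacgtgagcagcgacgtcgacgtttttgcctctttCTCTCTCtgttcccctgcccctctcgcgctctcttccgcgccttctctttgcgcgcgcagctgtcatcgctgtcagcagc
CycE intron, late HIRA mutants (chr2L:15733315-15733513, minus strand): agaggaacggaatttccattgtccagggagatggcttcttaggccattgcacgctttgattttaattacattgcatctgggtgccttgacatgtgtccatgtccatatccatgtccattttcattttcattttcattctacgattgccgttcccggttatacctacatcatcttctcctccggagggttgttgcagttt
twe coding exon (chr2L:16260462-16260653, minus strand): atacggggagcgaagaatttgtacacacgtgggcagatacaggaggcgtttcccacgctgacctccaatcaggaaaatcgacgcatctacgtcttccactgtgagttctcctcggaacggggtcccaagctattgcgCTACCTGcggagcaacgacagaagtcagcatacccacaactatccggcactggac
grp intron (chr2L:16690481-16690718, plus strand): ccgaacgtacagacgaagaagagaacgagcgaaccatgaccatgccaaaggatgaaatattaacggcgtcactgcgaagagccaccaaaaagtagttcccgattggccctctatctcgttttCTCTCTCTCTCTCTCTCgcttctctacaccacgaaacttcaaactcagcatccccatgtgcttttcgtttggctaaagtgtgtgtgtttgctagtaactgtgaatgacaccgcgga

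On average the 9 genes had fewer peaks in early *HIRA* mutants than in their controls and more in *dPCIF1* mutants, as did the whole peak lists, whereas the late *HIRA* mutants had more peaks at the genes but fewer in all. The *HIRA* mutants at 0.5 to 1.5 h had 1505 and 2399 peaks in all, of which 5 and 6 lay at the 9 genes, against 4707 and 5449 peaks with 11 and 17 at the genes in their controls. The later *HIRA* mutants, at 2 to 3 h, had 10595 and 7122 peaks with 26 and 20 at the genes, against 11432 and 9998 with 20 and 19 in their controls. The *dPCIF1* mutants had 9774 and 11347 peaks with 18 and 22 at the genes, against 7534 and 7814 with 13 and 16 in their controls. The files hold positions only, so the sequencing depth behind these lists is unknown and its part in the differences was not tested.

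**Figure D1:**
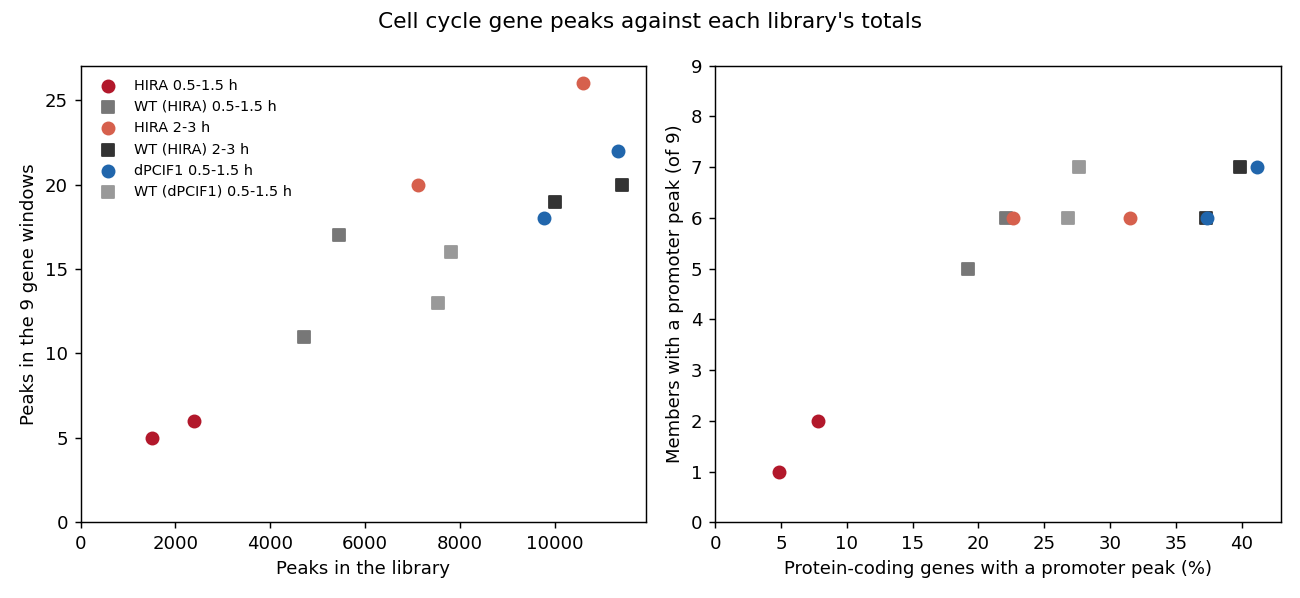
Each point is 1 library. The left panel plots the peaks in the 9 gene windows against all peaks of the library, and the right panel plots how many of the 9 genes had a peak within 1 kb of a start site against the percent of all protein-coding genes that did. The HIRA mutants at 0.5 to 1.5 h, with 1 and 2 genes, lie at the low end of both axes, and the other 10 libraries have 5 to 7 genes.

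Per 1000 peaks of the library, the 9 genes held 2.91 ± 0.581 peaks in early *HIRA* mutants and 2.73 ± 0.554 in their controls (SD, n = 2 each), a difference within the spread of the replicates. They held 2.63 ± 0.25 per 1000 in late *HIRA* mutants and 1.82 ± 0.107 in their controls (SD, n = 2 each), and these libraries did not overlap. The *dPCIF1* mutants and their controls both had 1.89 per 1000 (SD 0.0686 and 0.228, n = 2 each). With 2 libraries against 2, an exact two-sided permutation test cannot give a p below 0.333, so no difference between 2 groups could pass this test at 0.05, and all are given as values.

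The share of a gene's window that peaks covered ranked the genes from *CycB*, with a median of 15.1% over the 12 libraries, through *CycB3* (14.7%), *CycE* (14.1%) and *CycA* (12.5%) to *stg* (8.64%), *grp* (3.92%), *twe* (3.72%), *Cdk1* and *mei-41* (0 each). The first 4 genes do not separate, since *CycB* ranged between 0 and 22.5%, *CycB3* between 7.32% and 26.6%, *CycE* between 5.35% and 20.5% and *CycA* between 0 and 19.3%. *stg* ranged between 0 and 14.7% and overlapped both the cyclins and the *grp* range of 0 to 7.72%. *Cdk1*, at 0 in 7 libraries, reached 20.2% in 1 late control library. *mei-41* was at 0 in every library.

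**Figure D2:**
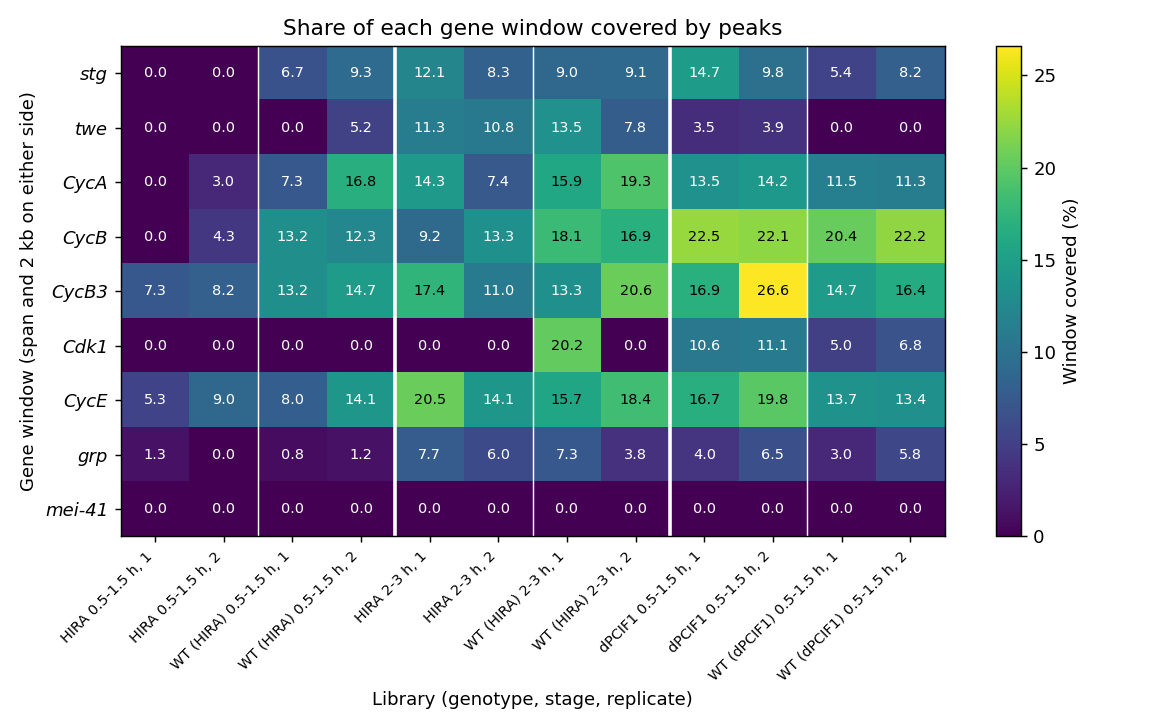
Percent of each gene window (gene span and 2 kb on either side, rows) covered by peaks in each of the 12 libraries (columns, mutants left of their controls). Both early HIRA mutant libraries are at 0 for stg, twe, Cdk1 and mei-41, whereas CycB3 and CycE are covered in all 12.

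Of the 36 regions, 15 were promoter regions, meaning that they came within 1 kb of a start site of their own gene, 5 lay within 1 kb of the start of a neighbouring gene only, and 16 were distal to both. Of these regions, 4 of 36 were present in all 12 libraries, where 3.14% of all regions were, and 7 of 36 were seen in 1 library, where 35.9% of all regions were. The 4 constant regions were 3 at *CycE* and 1 downstream of *CycB3*.

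**Figure D3:**
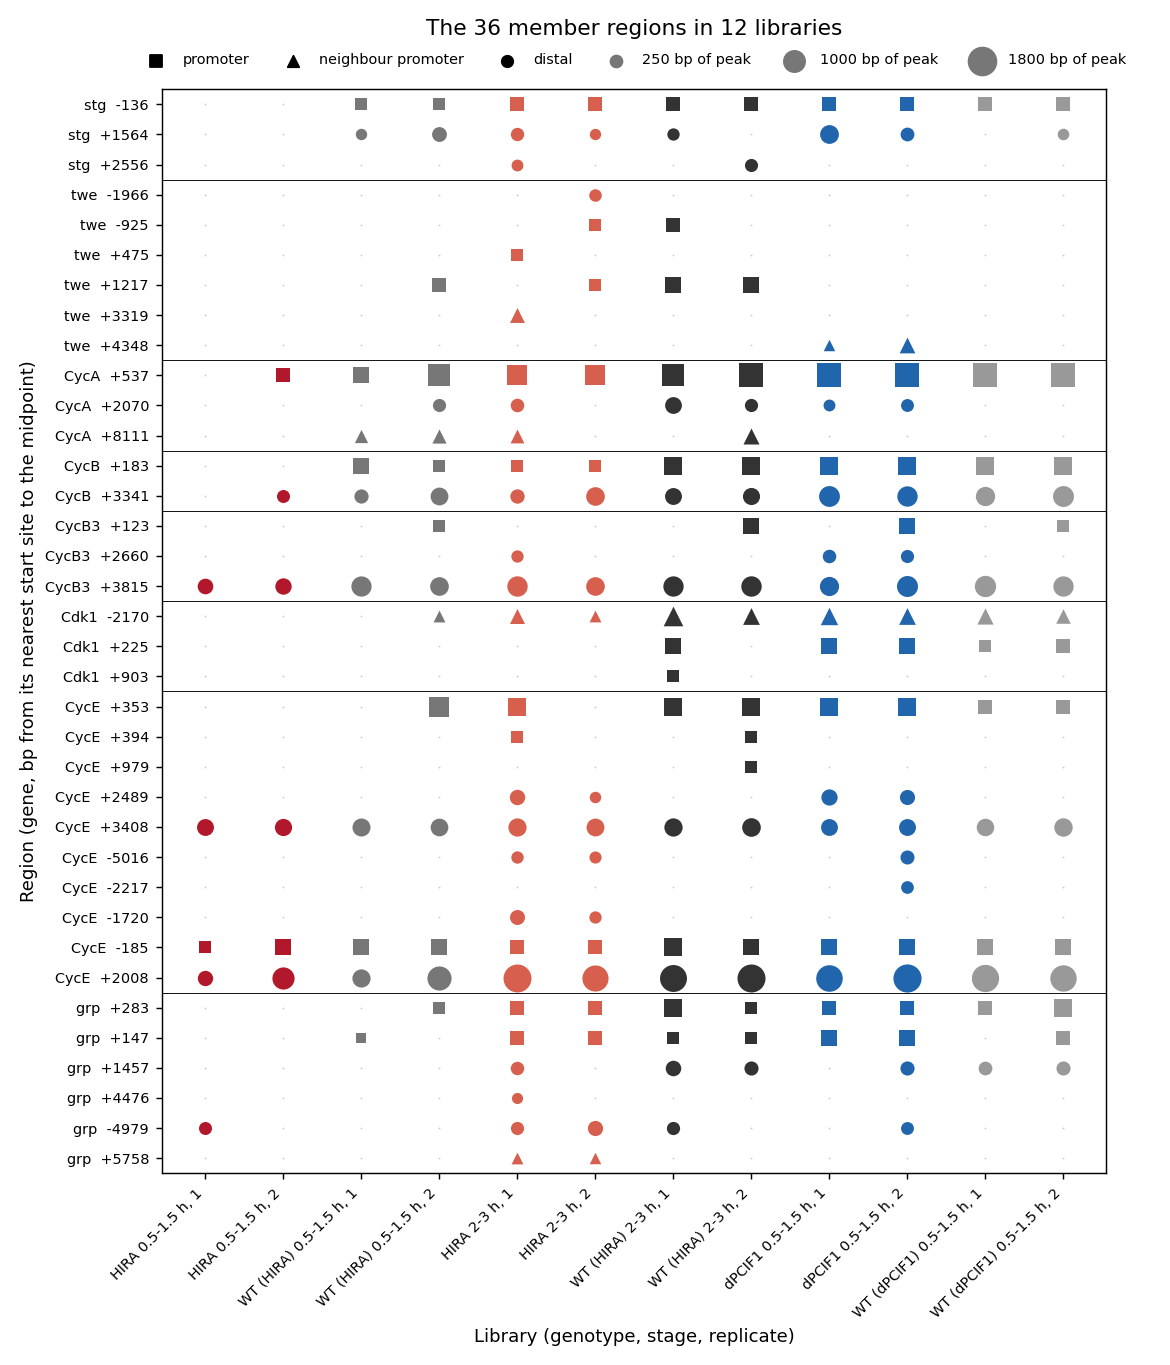
Presence of the 36 regions (rows, by gene and by the distance in bp from the nearest own start site to the region's midpoint, negative when upstream) in the 12 libraries (columns, mutants left of their controls). The marker size gives the base pairs of peak, squares are promoter regions, triangles lie at a neighbour's start and circles are distal, and 4 rows are filled across all 12 columns.

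*stg* (chr3R:29251826-29255800, minus strand) encodes the Cdc25 whose zygotic transcription times the mitoses after the syncytial cycles. Its promoter region, with the midpoint at -136 bp from the downstream start site and in the 5′UTR, had no peak in either *HIRA* mutant library at 0.5 to 1.5 h, against peaks of 312 and 299 bp in their controls. It was 371 and 441 bp wide in *HIRA* mutants at 2 to 3 h, against 441 and 402 bp in their controls, and at 0.5 to 1.5 h it was 405 and 412 bp in *dPCIF1* mutants, against 430 and 421 bp in theirs. The promoter was thus open in 10 of 12 libraries, and the missing ones were the early *HIRA* mutants. The peak spanned the downstream of the 2 annotated starts in 9 libraries and the upstream one in 0. A second region inside the *stg* coding sequence, centred at 1564 bp, was absent from both early *HIRA* mutant libraries and present in 8 others. Its width was 771 and 372 bp in *dPCIF1* mutants, against 0 and 233 bp in their controls.

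*twe* (chr2L:16259414-16261877, minus strand) encodes the Cdc25 that the mother supplies to the syncytial cycles and that meiosis needs. No library had a peak over either of its annotated start sites. A peak came within 1 kb of a *twe* start in both late *HIRA* mutant libraries, in 1 of the 2 late controls, and in no library at 0.5 to 1.5 h. In the late mutants these peaks were at different sites. The first library had 282 bp in the *twe* coding sequence, and the second had 274 bp within the neighbour *CG4935*. The region in the *twe* coding sequence with the Zelda match shown above had 0 and 248 bp of peak in late *HIRA* mutants, against 480 and 507 bp in their controls, and at 0.5 to 1.5 h it appeared once, with 336 bp in an early *HIRA* control. The start of the neighbour *PRL-1*, at the far end of the window, had peaks of 228 and 514 bp in *dPCIF1* mutants and none in their controls.

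*CycA* (chr3L:11826719-11833578, minus strand) encodes cyclin A, the mitotic cyclin that flies cannot do without. Its promoter peak stood at percentile 94.4 or above of the widths of its library in 9 of the 11 libraries that had it, but where the peak ended differed. In late *HIRA* mutants it was 823 and 804 bp wide and began 306 and 274 bp downstream of the start site, against 1130 and 1231 bp in their controls, which reached to -28 and -72 bp. In early *HIRA* mutants 1 library had no peak and the other had 330 bp, which began 571 bp downstream, against 458 and 1101 bp in their controls, which began at 616 and 0 bp. The *dPCIF1* mutants had 1215 and 1230 bp with upstream ends at -95 and -66 bp, against 1249 and 1232 bp ending at -80 and -72 bp in their controls. The DREF match at -4 bp therefore lay inside the *CycA* peak in 6 libraries, both late controls and all 4 of the *dPCIF1* set, and in 0 of the 4 *HIRA* mutant libraries and 0 of the 2 early *HIRA* controls. When a gene was called by having any of its start sites inside a peak, 5.71% of coding genes were called in both late controls and neither late *HIRA* mutant library, and *CycA* was the 1 of 9 members among them.

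*CycB* (chr2R:22803521-22806948, minus strand) encodes cyclin B, whose maternal RNA is kept at the posterior pole. The promoter peak was absent from both early *HIRA* mutant libraries and was 580 and 228 bp wide in their controls. In late embryos it was 274 and 229 bp in *HIRA* mutants, against 736 and 635 bp in their controls, and the libraries did not overlap. Ranked by width among all peaks of the same library, the late mutant peaks stood at percentiles 27.5 and 12.7, against 89.5 and 83.4 in the controls. The late mutant peaks began 213 and 312 bp downstream of the first *CycB* start, whereas the control peaks reached to -186 and -171 bp. This start was therefore inside a peak in both late controls and neither late mutant library, while a second *CycB* start further downstream was inside the peak in all 4, so that *CycB* as a gene was not called by the rule on any start site. A DREF match at -42 bp was inside the *CycB* peak in 8 of 12 libraries, and the 4 others were the *HIRA* mutants of both stages. The *dPCIF1* mutants had 704 and 720 bp, against 699 and 675 bp in their controls. A distal region beyond the 3′ end of *CycB* was present in 11 libraries, with the first early *HIRA* mutant library as the exception. By the rule on any start site, *CycB* was the 1 of 9 members with a start inside a peak in both early controls and neither early *HIRA* mutant library, as were 4.83% of coding genes.

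**Figure D4:**
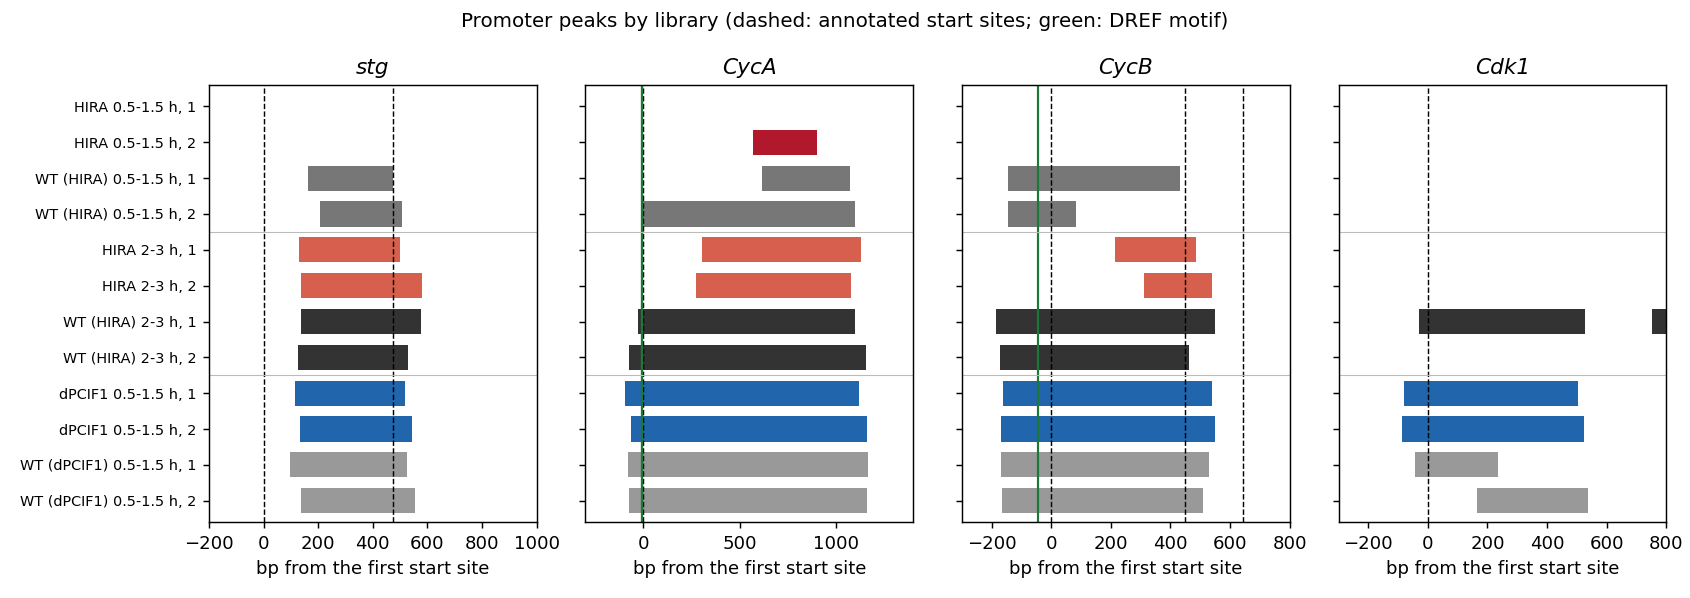
Peaks (bars) near the start of stg, CycA, CycB and Cdk1 in the 12 libraries (rows, mutants above their controls), by distance in bp from the gene's first annotated start site. Dashed lines mark annotated start sites and green lines the DREF match, which lies at -4 bp in CycA and at -42 bp in CycB, outside every HIRA mutant peak.

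*CycB3* (chr3R:24867934-24870816, minus strand) encodes cyclin B3, which acts in anaphase. Its start site was covered by a peak in 4 libraries, which were 1 library each of the *dPCIF1* mutants, the *dPCIF1* controls and the late and early *HIRA* controls. The widths were 519 bp in the *dPCIF1* mutant, 212 bp in the *dPCIF1* control, 493 bp in the late *HIRA* control and 249 bp in the early one. All 4 are the second replicate of their group. No *HIRA* mutant library had this peak. The M1BP match shown above, at -48 bp, was inside all 4 peaks. By contrast, a region centred 3815 bp downstream of the *CycB3* start, in the 3′UTR of the neighbour *Elal*, was present in all 12 libraries. It was 504 and 563 bp wide in early *HIRA* mutants, against 907 and 760 bp in their controls, at width percentiles of 91.2 and 92.8 in the mutants, against 98.5 and 94.5 in the controls, and held 1 GAF and 1 Zelda match within every peak.

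*Cdk1* (chr2L:10384739-10386262, minus strand) encodes the kinase that all mitotic cyclins bind, and it lies head to head with *mRpS7*. Its promoter had a peak in both *dPCIF1* mutant libraries (587 and 613 bp) and in both of their controls (279 and 374 bp). In the *HIRA* set it had a peak in 1 of 8 libraries, a late control with 559 bp, and in none of the 4 mutant libraries. The early wild-type embryos of the 2 sets therefore differed in promoter call at *Cdk1*, as did 4.6% of coding genes that had a promoter peak in both *dPCIF1* controls and neither early *HIRA* control, while 0.916% differed the other way, with 0 of the 9 genes among them. By covered length *Cdk1*, *CycB*, *CycB3* and *grp* were longer in both *dPCIF1* controls than in both early *HIRA* controls, and no member was shorter. The share of all coding genes by this covered-length rule is not given for the 2 wild-type sets. This comparison of the wild-type sets was added after the data were seen. A promoter peak in exactly the same 5 libraries was found at 31 other coding genes. The promoter of *da*, at the edge of the *Cdk1* window, was open in 9 libraries, although its peak reached into the window itself in 1 of them.

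*CycE* (chr2L:15727581-15748150, minus strand) encodes cyclin E and has 3 annotated start sites. Peaks were found at it in all 12 libraries. The stretch before the downstream start, centred at -185 bp, was 228 and 466 bp wide in early *HIRA* mutants, against 541 and 565 bp in their controls, 420 and 437 bp in late *HIRA* mutants, against 661 and 609 bp in theirs, and 577 and 517 bp in *dPCIF1* mutants, against 605 and 598 bp in theirs. In each of the 3 comparisons both mutant libraries were narrower than both controls. Ranked by width within the library, the early *HIRA* mutants overlapped their controls, at percentiles 21.2 and 85.5 in mutants, against 84.2 in both controls, while the late *HIRA* mutants stood at 63.3 and 67.9, against 85.4 and 81.4 in theirs, and the *dPCIF1* mutants at 80.3 and 74.6, against 87.7 and 86.5 in theirs. The intronic region centred 3408 bp from the nearest start varied between 601 and 758 bp over the 12 libraries, and it too was narrower in both mutant libraries than in both controls in the 3 comparisons. It had 606 and 631 bp in early *HIRA* mutants, against 702 and 672 bp in their controls, but by rank the order was the other way, at percentiles 96.4 and 95.4 in the mutants, against 93.9 and 91.0 in the controls. Late *HIRA* mutants had 719 and 687 bp, against 723 and 758 bp in their controls. By rank this order was also reversed, at percentiles 91.2 and 91.53, against 88.95 and 90.6. In *dPCIF1* mutants the order by rank was that by width, at percentiles 82.32 and 83.06, against 90.55 and 93.45 in their controls. Of the 4 constant regions at the 9 genes, mutants were narrower than controls without overlap in 3 for early *HIRA*, where 71.7% of the 702 regions of all 12 libraries were, in 2 for late *HIRA*, where 46% were, and in 2 for *dPCIF1*, where 21.5% were. These 2 *CycE* regions were narrower in all 3 comparisons, as were 7.55% of the 702. This comparison of widths was added after the data were seen. A region over the coding exons, centred at 2008 bp, was the widest of the 36 in merged extent (1960 bp), with 1821 and 1580 bp in late *HIRA* mutants, against 1688 and 1831 bp in their controls. No peak covered the middle start site.

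The upstream *CycE* promoter was less constant. It had 643 and 0 bp in late *HIRA* mutants, against 776 and 754 bp in their controls, and neither early *HIRA* mutant library had it, against 0 and 900 bp in their controls. In *dPCIF1* mutants it was 751 and 725 bp wide and reached past the first start to -142 and -84 bp, against 372 and 344 bp in their controls, which began 220 and 254 bp inside the gene. An intronic region centred 2489 bp from a start was present in both late *HIRA* mutant libraries (488 and 228 bp) and both *dPCIF1* mutant libraries (551 and 465 bp), and in no wild-type library. The intronic region at -1720 bp was present in both late *HIRA* mutant libraries alone (457 and 276 bp), and another at -5016 bp had 279 and 265 bp in late *HIRA* mutants and 388 bp in 1 *dPCIF1* mutant library. None of these 3 mutant-only regions held any of the 4 motifs.

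**Figure D5:**
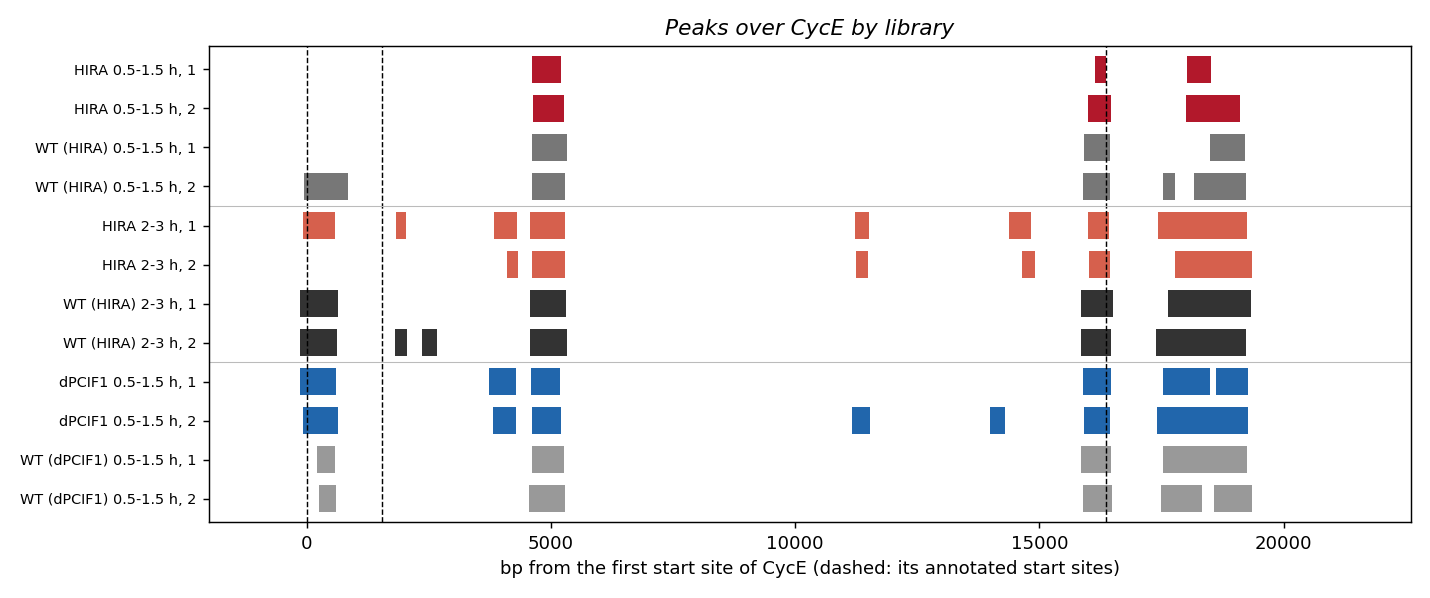
Peaks (bars) over CycE in the 12 libraries (rows, mutants above their controls), by distance in bp from the first of its 3 annotated start sites (dashed). The intronic, downstream-start and coding-exon regions are filled in all 12 rows, and the mutant-only intronic regions appear in late HIRA and in dPCIF1 rows.

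*grp* (chr2L:16680054-16699926, plus strand) encodes the Chk1 kinase and has 3 start sites, the first shared with *squ*. At 0.5 to 1.5 h neither *HIRA* mutant library had a promoter peak, and the 2 controls had 1 each, at different starts. One control had 200 bp at the second start and the other 298 bp at the first. In late embryos the first start had 370 and 321 bp in *HIRA* mutants, against 699 and 309 bp in their controls, and the second 342 and 411 bp in *HIRA* mutants, against 213 bp in each control. The 3 DREF matches before the first start were inside a peak in at most 2 of 12 libraries, and 7 of the 9 peaks there began downstream of the start. The intronic region with the GAF run was present in 5 libraries, with 329 and 473 bp in late *HIRA* mutants, 333 and 0 bp in their controls, and with 320 bp in 1 early *HIRA* mutant library and 311 bp in 1 *dPCIF1* mutant library. *mei-41* (chrX:16391698-16399850, plus strand), which encodes the ATR kinase, had no peak within 2 kb in any library, a pattern of promoter absence that it shared with 39.8% of coding genes. Its DREF match was therefore never inside a peak.

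At 0.5 to 1.5 h, maternal loss of HIRA went with fewer open members. A promoter peak was present at 1.5 ± 0.707 of 9 genes in *HIRA* mutants and 5.5 ± 0.707 in their controls (SD, n = 2 each). Among all coding genes the share fell too, with 6.34% ± 2.08 in the mutants and 20.6% ± 2.02 in the controls (SD, n = 2 each). *stg*, *CycB* and *grp*, 3 of the 9, had a promoter peak in both controls and neither mutant library, as had 7.81% of coding genes, and 0 of 9 showed the opposite, as did 0.0716%. The covered length was shorter in both mutant libraries than in both controls at *stg*, *CycA*, *CycB* and *CycB3*, 4 of 9 against 21.3% of coding genes, and longer at 0 of 9 against 0.358%. Of the regions, 4 of 36 were in both controls and neither mutant library, against 6.74% of all regions, and 0 of 36 were the reverse, against 0.264%. These were the promoter and the coding region of *stg*, the promoter of *CycB*, and the start of *CG32095* at the edge of the *CycA* window. When every library was cut to its 1505 widest peaks, the size of the smallest list, the numbers became 1 and 2 genes with a promoter peak in the mutants, against 3 and 2 in the controls. *stg* and *grp* were then called in none of the 4 libraries, and *CycB* in the first control alone. The absence of *stg*, *CycB* and *grp* from the early mutants therefore cannot be told apart from the shorter peak lists.

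Both early *HIRA* mutant libraries held the 3 constant regions of *CycE* and the one downstream of *CycB3*, which makes 4 of 36 regions. The second library added the *CycA* promoter and the distal *CycB* region, and the first added the *grp* intron. On average *CycE* had 1760.5 ± 631 bp of peak in mutants and 2715.5 ± 1070 bp in controls (SD, n = 2 each; overlapping). *CycB3* had 533.5 ± 41.7 bp in mutants and 958 ± 72.1 bp in controls (SD, n = 2 each; not overlapping).

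In the later embryos, at 2 to 3 h, 6 members had a promoter peak in both *HIRA* mutant libraries, against 7 and 6 in their controls. With each library cut to its 7122 widest peaks, the numbers were 4 and 6 in mutants, against 7 and 6 in controls. Among all coding genes the share, with all peaks, was 27.1% ± 6.33 in the mutants and 38.6% ± 1.82 in the controls (SD, n = 2 each). No member had a promoter peak in both controls and neither mutant library, against 6.9% of coding genes, nor the reverse, against 0.938%. The covered length was shorter in the mutants without overlap at *CycA* and *CycB*, 2 of 9 against 28.4% of coding genes, and longer at 0 of 9 against 4.77%. With the gene spans extended by 5 kb, or with peaks found in both replicates, *stg* was longer in the late mutants without overlap. The share of all coding genes under these settings is not given. *CycA* had 1552 and 804 bp in mutants, against 1727 and 2096 bp in controls, and *CycB* 684 and 988 bp in mutants, against 1342 and 1258 bp in controls. Regions ran the other way. In all, 4 of 36 regions were in both mutant libraries and neither control, against 2.81% of all regions. In both controls and neither mutant library were 0 of 36, against 7.1%. Of the 4 regions, 3 are the *CycE* intron regions described above. The fourth lies 3′ of *grp*, inside the annotated pseudogene *CR43670*, with peaks of 246 and 229 bp. The 2 late mutant libraries differed in their number of peaks by more than the 2 controls did, and the depth behind this is unknown.

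In *dPCIF1* mutants at 0.5 to 1.5 h the promoters of the members were as often called as in their controls, with 6 and 7 of 9 genes in both groups. Among all coding genes the share was 39.2% ± 2.68 in the mutants and 27.2% ± 0.601 in the controls (SD, n = 2 each). A promoter peak in both mutant and neither control library was found at 0 of 9 genes, against 6.79% of coding genes, and the reverse at 0 of 9, against 0.745%. More of the windows was covered, however. The covered length was greater in both mutant libraries than in both controls at 6 of 9 genes (*stg*, *twe*, *CycA*, *CycB3*, *Cdk1* and *CycE*), against 32.1% of coding genes, and smaller at 0 of 9, against 4.6%. At *twe* the 228 and 253 bp covered in the mutants lay wholly at the start of the neighbour *PRL-1*, and not in *twe* itself. *Cdk1* had 587 and 613 bp in mutants, against 279 and 374 bp in controls, and *CycE* 4115 and 4854 bp in mutants, against 3359 and 3296 bp in controls. *stg* had 1176 and 784 bp in mutants, against 430 and 654 bp in controls. In total 4 of 36 regions were in both mutant libraries and neither control, against 8.39% of all regions, and 0 of 36 were the reverse, against 2.24%. They were the *PRL-1* start near *twe*, an intron of *CycA*, the 3′ end of *CycB3* and the *CycE* intron at 2489 bp. With each library cut to its 7534 widest peaks, *stg*, *CycB3*, *Cdk1* and *CycE* remained longer without overlap and *twe* and *CycA* did not. The share of all coding genes under this cut is not given.

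Between the stages, wild-type embryos of the *HIRA* set were compared in the same way. Among the late libraries, 6.5 ± 0.707 of 9 genes had a promoter peak, against 5.5 ± 0.707 among the early ones (SD, n = 2 each). The share of all coding genes was 38.6% ± 1.82 late and 20.6% ± 2.02 early (SD, n = 2 each). A promoter peak in both late and neither early library was found at 0 of 9 genes, against 9.19% of coding genes, and the reverse at 0 of 9, against 0.043%. The covered length was greater at 2 to 3 h without overlap at *twe*, *CycB*, *CycE* and *grp*, 4 of 9 against 43.3% of coding genes, and smaller at 0 of 9 against 0.315%. With peaks found in both replicates, or with equal numbers of the widest peaks, *stg* was shorter at 2 to 3 h without overlap. The share of all coding genes under these settings is not given. *grp* had 1741 and 915 bp late, against 200 and 298 bp early. One region, a *grp* intron, was in both late and neither early library, 1 of 36 against 11.4% of all regions, and 0 of 36 were the reverse, against 0.121%.

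In *HIRA* mutants a promoter peak was present at 6 of 9 genes in both late libraries, against 1.5 ± 0.707 in the early ones (SD, n = 2 each). The share of all coding genes was 27.1% ± 6.33 late and 6.34% ± 2.08 early (SD, n = 2 each). *stg*, *twe*, *CycB* and *grp* had a promoter peak in both late libraries and neither early one, 4 of 9 against 11.4% of coding genes, and 0 of 9 showed the reverse, against 0.00716%. At *twe* the late peaks of the libraries lay at different sites. The covered length was greater at 2 to 3 h at 7 of 9 genes, all but *Cdk1* and *mei-41*, against 33.3% of coding genes, and smaller at 0 of 9 against 0.0788%. Of the regions, 10 of 36 were in both late and neither early mutant library, against 14.9% of all regions, and 0 of 36 were the reverse, against 0.0358%. Both stage comparisons and both *HIRA* comparisons share libraries, so their values are given side by side and were not tested against each other. With the 1505 widest peaks of each library, the late *HIRA* mutants had 5 and 4 peaks at the 9 genes, against 5 and 6 in the early ones.

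The promoter state of the members was compared with 52 other genes of the cell cycle, grouped by role. A promoter peak was present at 2 and 3 of the 52 genes in early *HIRA* mutants, against 19 and 18 in their controls, at 22 and 20 in late *HIRA* mutants, against 35 and 31 in theirs, and at 32 and 34 in *dPCIF1* mutants, against 26 and 29 in theirs. Among all coding genes the shares were 4.87% and 7.81%, against 19.2% and 22.1%, for early *HIRA*. They were 31.5% and 22.6%, against 39.9% and 37.3%, for late *HIRA*, and 37.3% and 41.1%, against 26.8% and 27.6%, for *dPCIF1*. In all these controls the list was thus open more often than coding genes at large. Only genes with the peak in both controls can be counted as lost, so the shares of lost genes below start from unlike levels. In early *HIRA* mutants 10 genes lacked the peak that both controls had, or 19.2% of the list, where 7.81% of coding genes had. They include *Z600*, an early zygotic inhibitor of Cdk1, *fzr*, an activator of the anaphase-promoting complex, *aurA*, a centrosomal mitotic kinase, *Rbf* and *Dp*, which act with E2F at S-phase genes, and the PP2A subunits *mts* and *wdb*. Late, 7 genes, or 13.5%, had the peak in both controls and neither *HIRA* mutant library, where 6.9% of coding genes had, and these included *Myt1*, an inhibitory kinase of Cdk1, *aurB*, *mad2*, *geminin* and *dup*, which act at the kinetochore and in replication licensing. One gene, *png*, a kinase that promotes cyclin B translation in the syncytial cycles, showed the reverse, where 0.938% of coding genes did. In *dPCIF1* mutants *Claspin*, *tefu* (the fly ATM kinase) and *rux* (a Cdk inhibitor), 3 of 52 or 5.77%, had a peak that neither control had, where 6.79% of coding genes had. Between the stages, 8 of 52 genes, including *Cdk2*, *BubR1* and *geminin*, had the peak in both late and neither early library in wild type, or 15.4% where 9.19% of coding genes had. In *HIRA* mutants 14 of 52 had it, including *Cdk2*, *fzy* and *Z600*, or 26.9% where 11.4% of coding genes had.

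Across all 36 regions, motif matches within 100 bp of the midpoint were found for GAF in 4 regions, where 6.51% of all regions had one, for Zelda in 3, where 3.95% had one, for DREF in 1, where 3.38% had one, and for M1BP in 0, where 0.711% had one. These matches are descriptions of the reference sequence and not measured binding.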

How the data were processed

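ATAC-seq peaks were taken as deposited, with 1 list per library. Per the labels and the study's methods, the authors trimmed reads with Trimmomatic 0.39, mapped them to dm6 with Bowtie2 2.2.5, marked duplicates, filtered with SAMtools 1.18 and called peaks per library with MACS2 2.2.7.1 at a q-value of 0.01. The deposited columns hold other values than counts or scores, namely chromosome, start and end. No p-value, ratio, signal or count is in the files used here, so depth is unknown. How the transposase offset was handled is not given in the sources used here.

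Coordinates are counted from 1 and genes are from Ensembl release 115 on the same assembly. Peaks were assigned to a gene span plus 2 kb, and to a promoter within 1 kb of a start site. Overlapping peaks of the 12 libraries were merged into regions. All 9 genes and 52 list genes matched the annotation. Groups were taken from the labels, and replicates of a group are separate biological replicates by the study's methods. Covered lengths were compared by an exact permutation test over libraries. The members and the lists were chosen with earlier results of these data known. All 9 members are named. Genes of the list of 52 are named only where their promoter peak was called as different in a comparison, and not every called gene is named. The start-site rule, the comparison of the wild-type sets, the widths of constant regions and values per 1000 peaks were added after the data were seen. The scripts for promoter and covered-length calls were tested on simulated peak lists. Alternatives were the window size, promoter width, replicated peaks (at least 20% of both), the widest peaks, leaving out each library and a replicate block. Python 3.11.15 and matplotlib 3.10.9 were used.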

Additional observations from a re-analysis of the deposited data

How the results depend on the processing

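With each library cut to the same number of its widest peaks, the mutant minus control difference at 0.5 to 1.5 h for *HIRA* became -0.5 peaks (-8.5 with all peaks) and that in members with a promoter peak -1 (-4 with all). The late *HIRA* difference in members with a promoter peak became -1.5 (-0.5 with all). The stage difference in peaks became 0 in wild type (5.5 with all) and turned round to -1 in *HIRA* mutants (17.5 with all), where that in members with a promoter peak became 0 (4.5 with all). By construction these settings drop the narrower peaks of the longer lists. With genes extended by 5 kb, the differences in peaks were 8.5 for *dPCIF1*, 9.5 between the stages in wild type and 23.5 in *HIRA* mutants, where they were 13.5 without extension and 12 with replicated peaks.

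The number of members whose covered lengths did not overlap was 2 in early *HIRA* mutants with the widest peaks (4 with all), 4 in late *HIRA* mutants both at 5 kb and with replicated peaks (1 longer, *stg*, and 3 shorter, against 2 shorter in the main rule), 7 between the wild-type stages under the same settings (7 longer at 5 kb, 6 longer and 1 shorter, *stg*, with replicated peaks, against 4 longer in the main rule), and 3 between the *HIRA* mutant stages with the widest peaks (7 with all). These settings of the covered length were added after the data were seen. The share of all coding genes is given for the main rule only, so counts under the other settings are not read as results about the members. With the widest peaks the wild-type stages also had 3 longer and 1 shorter, *stg*. With single libraries left out, the late *HIRA* difference in members with a promoter peak ranged between -1 and 0, and the *HIRA* mutant stage difference between 4 and 5. The difference in peaks (all peaks) ranged between -11.5 and -5.5 for early *HIRA* (-5.5 without the second control), 0.5 and 6.5 for late *HIRA* (without the first and the second mutant library), 3.5 and 7.5 for *dPCIF1* (3.5 without the second mutant library), 2.5 and 8.5 for the wild-type stages (without the first and the second early library) and 14.5 and 20.5 for the *HIRA* mutant stages. The causes of these moves were not tested.

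Replicate numbers name libraries only. With 1 library of each number per group, a replicate block cannot move a mean difference in peaks (-8.5, 3.5 and 5.5 for early *HIRA*, late *HIRA* and *dPCIF1*, 5.5 and 17.5 for the stages in wild type and *HIRA* mutants). As a replicate block on the covered length, pairing by number gave 5 of 9 members shorter in both pairs for early *HIRA* (4 unpaired), 1 longer (*grp*) and 2 shorter for late *HIRA* (2 shorter unpaired), 7 longer for *dPCIF1* (6 unpaired), and 6 and 7 longer for the stages in wild type and *HIRA* mutants (4 and 7 unpaired). Same-numbered libraries deviated with correlations over 13968 genes of 0.114, 0.172, 0.0375, -0.0908 and -0.246 in the same order. For the last, crossed pairing, added after the data were seen, gave 7 of 9 members longer in both pairs. The share of all coding genes called in both pairs is not given, so the paired counts are not read as results about the members.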

Other observations

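The promoter peak of *CycB3* was present in the second library of 4 groups and absent from the first library of all 6 groups. Of 13968 protein-coding genes, 0 others had a promoter peak in exactly these 4 libraries. The replicate numbers name libraries, and the labels give no shared batch for them.

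*stg*, *CycB* and *grp* had a promoter peak in the same 10 libraries, a pattern that 608 other coding genes had too, or 4.35% of coding genes. The *CycA* pattern (11 libraries) was shared by 343 others, the *CycE* pattern (12 libraries) by 374 others and the *twe* pattern by 11 others.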
